A study of Mus musculus with 12 samples.

Results

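Cytotoxic lymphocytes and neutrophils release the contents of their granules through a shared machinery. The small GTPase RAB27A marks the granule, synaptotagmin-like proteins (encoded by the Sytl genes) bind RAB27A and tether the granule to the plasma membrane, MUNC13-4 (Unc13d) primes it, and syntaxin 11 (Stx11) with its chaperone MUNC18-2 (Stxbp2) takes part in membrane fusion. Serglycin (Srgn) is the proteoglycan that packs the granule contents, granzyme B (Gzmb) and perforin (Prf1) are the classical cytotoxic cargo, and NKG7 is a small granule membrane protein known from natural killer (NK) and CD8+ T cells. These 10 genes, Nkg7, Sytl3, Sytl1, Rab27a, Unc13d, Stx11, Stxbp2, Srgn, Gzmb and Prf1, were followed through 12 RNA-seq libraries of myeloid-derived suppressor cells (MDSCs). They were picked by symbol out of the 24346 gene rows of each library, with earlier results on the same libraries known, so their differences between groups are given as a description with standard errors and without p-values.

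The cells were sorted out of Hepa 1-6 tumors, a mouse hepatoma line injected into the livers of wild-type female C57BL/6J mice of 6 to 8 weeks. Among CD11b+ cells, the gate for monocytic M-MDSCs took high Ly-6C and no Ly-6G, and the gate for polymorphonuclear PMN-MDSCs took intermediate Ly-6C together with Ly-6G. Each cell type had 2 libraries from mice given vehicle, 2 from mice given MS-275 and 2 from mice given CXD101, which makes 6 groups. MS-275 and CXD101 are both inhibitors of the histone deacetylases HDAC1-3. For the M-MDSC groups the dose was 5 mg/kg of either compound, injected daily for 10 days from day 10 after inoculation, with cells collected on day 21, and the vehicle mixed DMSO, PEG300 and PBS. The methods used here do not describe the PMN-MDSC libraries, so their dose and schedule are not given, and it is not stated whether the 2 PMN-MDSC libraries of a group came from separate mice. Their spread may be technical.

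Expression was given as FPKM, which counts sequenced fragments per length of transcript and per size of library. The depth of each library was estimated from what 1 read was worth in genes of low FPKM, and came to between 8260000 and 10400000 reads in M-MDSC libraries and between 6840000 and 8040000 in PMN-MDSC libraries. Monocyte and neutrophil marker genes checked the labels. The 11 neutrophil markers summed to between 11873 and 26526 FPKM in M-MDSC libraries and to between 73668 and 303121 in PMN-MDSC libraries, and the 7 monocyte markers to between 1625 and 2718 and between 668 and 1799. The monocyte sums separated the cell types within each treatment but not across treatments. They were 1548 to 1799 in treated PMN-MDSCs and 1625 to 1698 in vehicle M-MDSCs. Ly6c2 held most of these sums, at 1418 to 1677 FPKM in treated PMN-MDSCs and 1306 to 1360 in vehicle M-MDSCs. Ccr2, F13a1 and Ms4a6c were each higher in every M-MDSC library than in any PMN-MDSC library. Csf1r, Fcgr1 and Cx3cr1 overlapped between the cell types. S100a8 and S100a9 together took 1.78% to 4.28% of the summed FPKM in M-MDSC libraries and 10.2% to 30.9% in PMN-MDSC libraries. In bulk libraries, fewer cells of a type and less RNA per cell cannot be told apart.

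Of the 10 genes, 9 had a promoter entry in the RefSeq table of GRCm38.p6. The promoters of Nkg7, Sytl3 and Sytl1, the 3 genes with the largest log2 differences from vehicle in PMN-MDSCs, are shown because these genes carry the main result. Each line runs 5′ to 3′ on the strand of the gene, from 250 bases before the RefSeq start to the base before the RefSeq start or before the first GENCODE transcript start, whichever came first, and capitals mark matches to the RUNX letters TGTGGT on either strand.
Nkg7, chr7:43436888-43437072, plus strand: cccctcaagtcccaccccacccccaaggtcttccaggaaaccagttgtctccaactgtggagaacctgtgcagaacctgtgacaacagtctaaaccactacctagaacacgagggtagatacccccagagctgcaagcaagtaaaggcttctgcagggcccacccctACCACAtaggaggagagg
Sytl3, chr17:6658809-6659058, plus strand: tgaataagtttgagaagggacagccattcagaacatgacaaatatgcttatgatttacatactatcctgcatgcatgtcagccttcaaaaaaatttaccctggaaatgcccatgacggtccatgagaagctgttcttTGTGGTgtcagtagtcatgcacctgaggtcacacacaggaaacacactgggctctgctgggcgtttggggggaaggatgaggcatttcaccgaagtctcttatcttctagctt
Sytl1, chr4:133263114-133263337, minus strand: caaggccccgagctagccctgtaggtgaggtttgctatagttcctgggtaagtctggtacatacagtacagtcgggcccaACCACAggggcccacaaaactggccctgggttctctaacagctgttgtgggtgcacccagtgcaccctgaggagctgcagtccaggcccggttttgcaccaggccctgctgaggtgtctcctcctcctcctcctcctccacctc

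The RUNX letters stood once in each of the 3 windows, 83 to 78 bases before the RefSeq start in Nkg7, 113 to 108 in Sytl3 and 170 to 165 in Sytl1. They were found in 14.0% of the 32851 promoter windows of the table. The same letters were found once in the windows of Prf1 and of 1 of the 2 promoters each of Rab27a and Srgn, and at 2 places in that of Gzmb. The T-box letters GGTGTGA, held by 3.33% of all windows, stood 13 to 7 bases before the RefSeq start of Nkg7, beyond the stretch shown, and in 1 promoter of Rab27a. The ETS letters GAGGAA (23.3% of all windows) and the C/EBP letters TTGCNNAA (9.56%) were in no window of these genes. The GC box GGGCGG (32.7%) was found in Stx11 and Rab27a, and the TATA box TATAAA (12.4%) in Srgn. All motifs were searched on both strands, and a match is a run of letters that no value here ties to a bound factor. The Nkg7, Sytl3 and Sytl1 windows held 2, 3 and 4 CG dinucleotides against a median of 6 over all windows.

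Nkg7 was higher after treatment in both cell types and with both inhibitors, and the largest group mean was under MS-275 in M-MDSCs. In the GRCm38 build it occupies bases 43437073 to 43438249 of chromosome 7, plus strand. In M-MDSCs its FPKM was 9.19 and 6.01 in the vehicle libraries, 66.3 and 72.7 under MS-275, and 37.9 and 27.9 under CXD101. In PMN-MDSCs it was 1.10 and 1.70 with vehicle, 41.7 and 40.2 under MS-275, and 26.5 and 33.6 under CXD101. All treated libraries lay above all vehicle libraries of either cell type. The group means of M-MDSCs were 7.60 ± 2.25 (SD, n = 2 here and below), 69.5 ± 4.53 and 32.9 ± 7.01 FPKM, so that MS-275 stood 9.14-fold and CXD101 4.33-fold above vehicle. In PMN-MDSCs the means were 1.40 ± 0.423, 41.0 ± 1.10 and 30.1 ± 4.99, or 29.2-fold and 21.4-fold above vehicle. The vehicle PMN-MDSC values correspond to about 6.1 and 9.1 reads with a transcript of 686 bases, or 7.8 and 11.6 with 881 bases. The size of these PMN-MDSC ratios therefore rests on few vehicle reads.

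On the log2(FPKM + 1) scale, which understates the change of low genes, Nkg7 differed from vehicle in M-MDSCs by 3.06 with MS-275 and 1.99 with CXD101 (standard error 0.184 for both), and by 4.14 and 3.69 (standard error 0.151 for both) in PMN-MDSCs. Of all tested genes, between 99.8% and 99.99% had a smaller log2 difference in these comparisons. Among genes above 0, the Nkg7 level stood above 50.5% of them in vehicle M-MDSCs and above 92.1% under MS-275. In PMN-MDSCs it stood above 28.9% with vehicle and above 84.9% under MS-275. The order of the group means ran from M-MDSCs under MS-275 through PMN-MDSCs under MS-275, M-MDSCs under CXD101, PMN-MDSCs under CXD101 and vehicle M-MDSCs to vehicle PMN-MDSCs. The CXD101 groups of the 2 cell types overlapped, and no other neighbours in this order did.

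**Figure D1:**
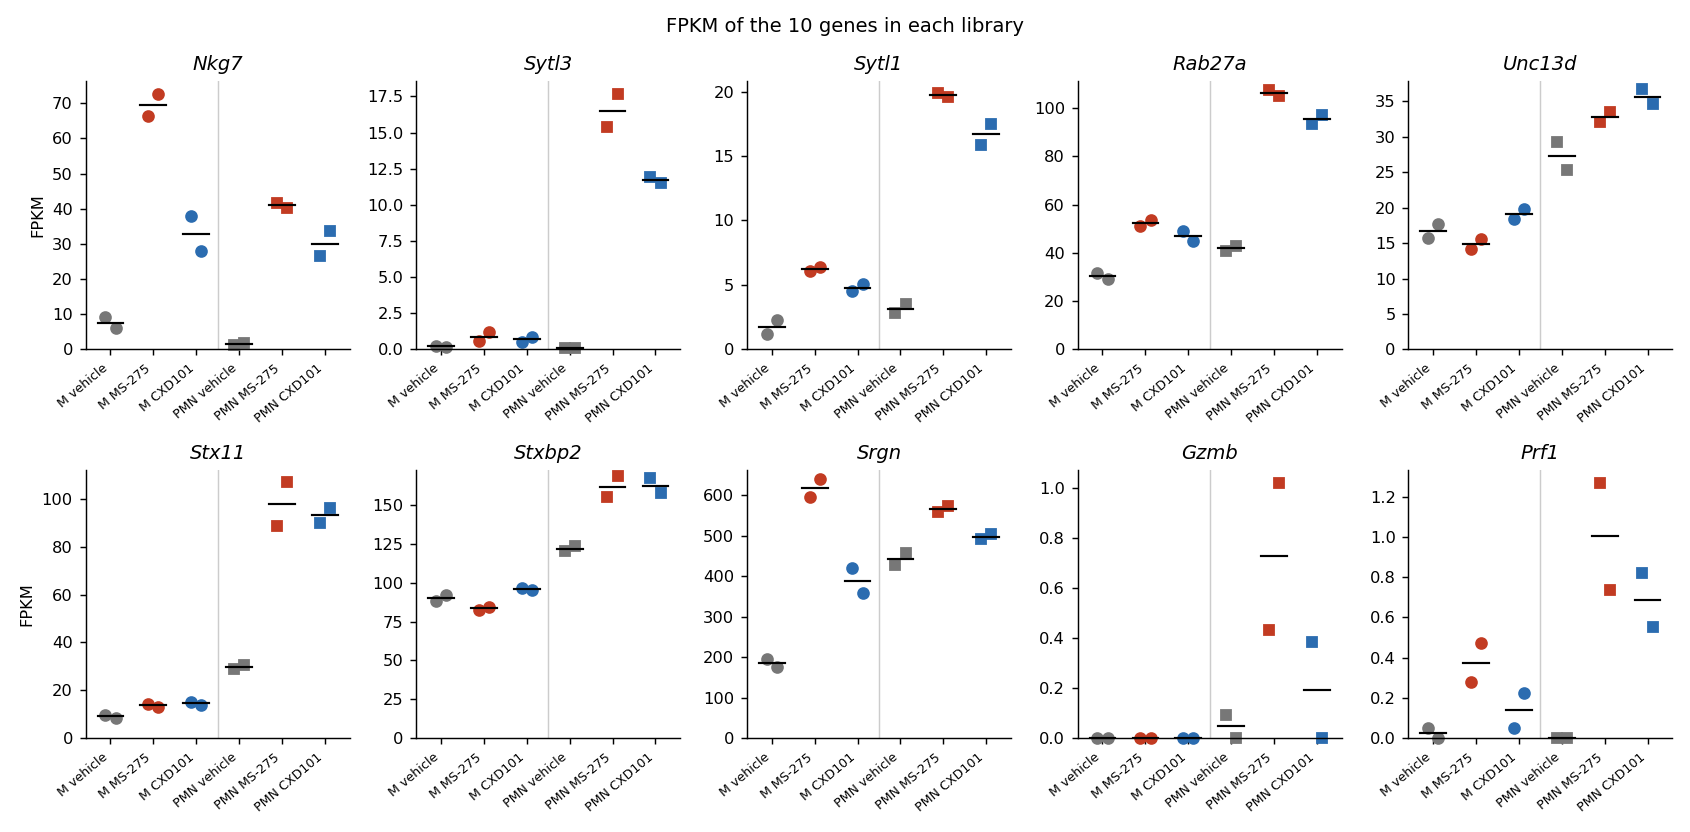
FPKM of each gene (vertical axes, linear, from 0) in each of the 12 libraries, grouped by cell type and treatment on the horizontal axes. Points are libraries (circles M-MDSC, squares PMN-MDSC), and black lines are means of 2. Sytl3 stayed at or under 1.19 FPKM in M-MDSC libraries and reached 11.5 to 17.7 in treated PMN-MDSC libraries, whereas Nkg7 was high in treated libraries of both cell types.

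Sytl3, a synaptotagmin-like RAB27 effector, had a low level in M-MDSCs and was above 1 FPKM in PMN-MDSCs in the treated libraries alone. The gene occupies bases 6659093 to 6738044 of chromosome 17, plus strand, and its end overlaps that of Ezr on the opposite strand. Whether counting used the strand is not given in the sources used here. In PMN-MDSCs Sytl3 was 0.107 and 0.110 FPKM with vehicle, 15.4 and 17.7 under MS-275, and 11.9 and 11.5 under CXD101. The treated libraries lay above 68.2% (MS-275) and 60.5% (CXD101) of the genes above 0 when averaged, and the vehicle libraries above 11.2%. A vehicle value of this size corresponds to about 1 read if the fragments were assigned to a transcript of 1239 bases. The ratio to vehicle is therefore set by 2 reads in all, and for MS-275, at 289 estimated reads, it was 162 per unit of depth with an exact 95% binomial interval of 44.4 to 1342. For CXD101 it was 114 with an interval of 31.2 to 949. With a transcript of 2423 bases the vehicle libraries held 4 reads, and the intervals were 61.4 to 582 and 43.4 to 413. These intervals cover counting error only.

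In M-MDSCs Sytl3 was 0.219 and 0.196 FPKM with vehicle, 0.573 and 1.19 under MS-275, and 0.522 and 0.869 under CXD101. The treated libraries did not overlap vehicle, but with 1239 bases they rested on 19 estimated reads under MS-275 and 15 under CXD101 against 5 with vehicle. The ratios were 3.72 (interval 1.34 to 12.7) and 3.06 (1.06 to 10.8). Genes entered the M-MDSC model with 2 or more of the 6 libraries at or above 1 FPKM, a minimum that Sytl3 did not reach. In the model of all 12 libraries, the PMN-MDSC response to MS-275 exceeded the M-MDSC response by 3.36 (standard error 0.233) and that to CXD101 by 3.04 on the log2 scale. With a pseudocount of 0.1 in place of 1, the PMN-MDSC difference under MS-275 moved from 3.98 to 6.31, so the size on the log scale depends on this choice.

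Sytl1, which encodes a further synaptotagmin-like RAB27 effector, was higher after treatment in both cell types. It occupies bases 133253090 to 133263113 of chromosome 4, minus strand. M-MDSC libraries had 1.22 and 2.31 FPKM with vehicle, 6.05 and 6.38 under MS-275, and 4.51 and 5.07 under CXD101. PMN-MDSC libraries had 2.81 and 3.49 with vehicle, 19.9 and 19.6 under MS-275, and 15.8 and 17.5 under CXD101. The groups of each cell type did not overlap. The log2 differences from vehicle were 1.42 and 1.10 (standard error 0.18 for both) in M-MDSCs and 2.33 and 2.09 (standard error 0.114 for both) in PMN-MDSCs.

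Rab27a, the GTPase to which these effectors bind, was well expressed without treatment and was higher than vehicle in all 4 treated groups. It occupies bases 73044854 to 73097629 of chromosome 9, plus strand, with a processed pseudogene, Gm27186, overlapping it on the same strand. In M-MDSCs its FPKM was 31.7 and 29.3 with vehicle, 51.0 and 53.8 under MS-275, and 49.0 and 45.1 under CXD101, or 1.72-fold and 1.54-fold vehicle. In PMN-MDSCs it was 40.9 and 43.0 with vehicle, 107 and 105 under MS-275, and 93.6 and 97.3 under CXD101, or 2.53-fold and 2.28-fold. No treated library overlapped vehicle, and the response in PMN-MDSCs exceeded that in M-MDSCs by 0.56 (standard error 0.0932) under either inhibitor. The close relative Rab27b was at or below 0.150 FPKM in every library, and of the other Sytl genes Sytl2 and Sytl4 stayed at or below 0.262 and Sytl5 was listed at 0 throughout.

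The genes for priming and fusion did not move together. Stx11, a syntaxin without a transmembrane segment (chromosome 10, 12938209 to 12964298, minus strand), was 28.9 and 30.6 FPKM in vehicle PMN-MDSCs, 88.9 and 107 under MS-275, and 90.0 and 96.4 under CXD101. Its log2 differences from vehicle were 1.68 and 1.62 (standard error 0.0972 for both), and treated and vehicle libraries did not overlap. In M-MDSCs it was 9.79 and 8.49 with vehicle, 14.4 and 12.9 under MS-275, and 15.0 and 14.0 under CXD101. The log2 differences were 0.54 with MS-275 and 0.61 with CXD101, just below and just above the fold limit of 1.5 used here.

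Unc13d and Stxbp2, by contrast, stayed within 1.34-fold of vehicle in every group. Unc13d (chromosome 11, 116062095 to 116077961, minus strand) was 15.7 and 17.7 FPKM in vehicle M-MDSCs, 14.1 and 15.6 under MS-275, and 18.5 and 19.8 under CXD101. In PMN-MDSCs it was 29.3 and 25.3, 32.1 and 33.5, and 36.7 and 34.6. Stxbp2 (chromosome 8, 3630955 to 3643644, plus strand) was 88.4 and 91.8 FPKM in vehicle M-MDSCs, 82.7 and 84.3 under MS-275, and 96.4 and 95.6 under CXD101. Its PMN-MDSC values were 120 and 123, 155 and 168, and 168 and 157. The MS-275 libraries lay below vehicle in M-MDSCs and above vehicle in PMN-MDSCs for both genes. In M-MDSCs the intervals of the MS-275 differences, -0.36 to 0.05 for Unc13d and -0.23 to 0.02 for Stxbp2, included 0, and quantile normalization turned the latter from -0.11 to 0.03.

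Among the cargo genes, Srgn had the highest level of all 10 and a response that differed between the cell types in the opposite way. It occupies bases 62493833 to 62527451 of chromosome 10, minus strand. M-MDSC libraries had 195 and 176 FPKM with vehicle, 596 and 640 under MS-275, and 419 and 359 under CXD101, which is 3.33-fold and 2.1-fold vehicle. PMN-MDSC libraries had 429 and 457 with vehicle, 558 and 575 under MS-275, and 491 and 504 under CXD101, or 1.28-fold and 1.12-fold. The M-MDSC libraries under MS-275 lay above every PMN-MDSC library, and those under CXD101 lay below every PMN-MDSC library. The PMN-MDSC response was smaller by 1.38 (standard error 0.112) under MS-275 and by 0.89 under CXD101 on the log2 scale.

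The cytotoxic cargo itself was near the limit of detection. Gzmb (chromosome 14, 56258838 to 56262260, minus strand) was listed at 0 in all 6 M-MDSC libraries. Its PMN-MDSC values were 0.0926 and 0 FPKM with vehicle, 0.431 and 1.02 under MS-275, and 0.384 and 0 under CXD101, where the highest value corresponds to about 11 reads. Prf1 (chromosome 10, 61297833 to 61304680, plus strand) was 0.0514 and 0 FPKM in vehicle M-MDSCs, 0.279 and 0.470 under MS-275, and 0.0525 and 0.222 under CXD101. In PMN-MDSCs it was listed at 0 in both vehicle libraries, at 1.27 and 0.736 under MS-275, and at 0.819 and 0.554 under CXD101. The highest of these, with the longer annotated transcript of 2474 bases, corresponds to about 21.5 reads of Prf1, and neither gene entered a model. Of the 9 other granzyme genes listed, 7 were at 0 in all 12 libraries. Gzmm, a granzyme of NK cells, was between 0.201 and 1.57 FPKM without a common direction.

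**Figure D2:**
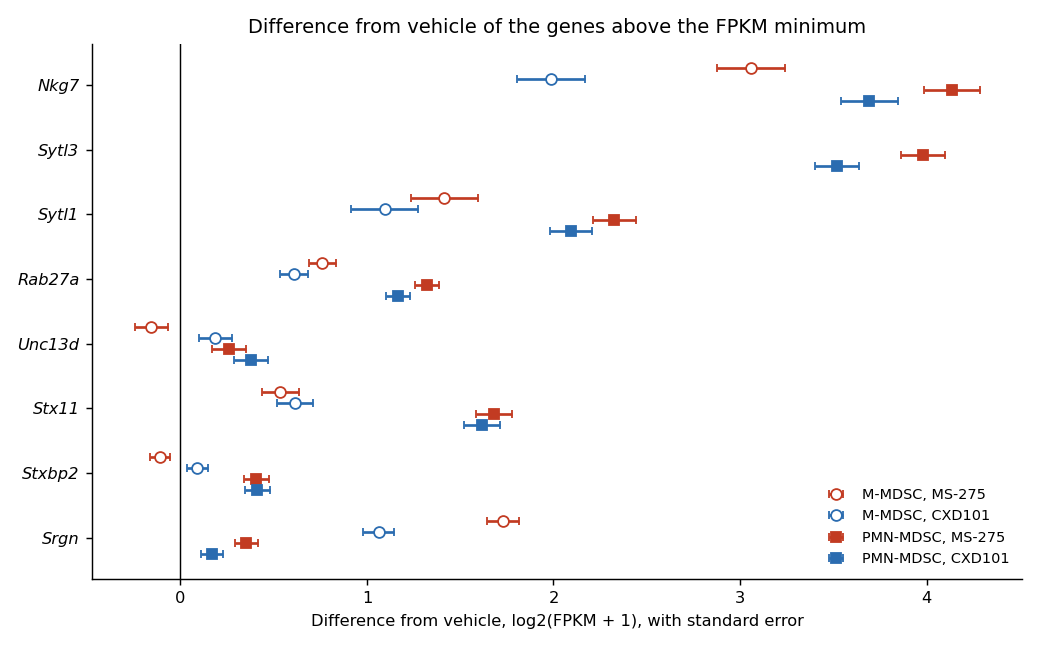
Difference from vehicle of the 8 genes that reached the FPKM minimum (horizontal axis, log2(FPKM + 1)), with standard errors from the limma model. Open circles are M-MDSCs and filled squares PMN-MDSCs, in red for MS-275 and blue for CXD101. Nkg7 and Sytl3 lie between 3.52 and 4.14 in PMN-MDSCs, and Srgn is the gene with the larger difference in M-MDSCs, at 1.73 and 1.06.

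A gene passed both limits of the model when its Benjamini-Hochberg adjusted p-value over all genes was under 0.05 and its fold change was above 1.5. In M-MDSCs under MS-275, 4 of the 7 genes in the model passed as higher (10.1% of all 11078 genes did, and 17.5% in either direction), and under CXD101 5 of 7 (5.14%, and 8.13% in either direction). In PMN-MDSCs, 5 of the 8 genes in the model passed as higher under MS-275 (14.6% of all 11184 genes, and 28.7% in either direction) and 5 of 8 under CXD101 (11.9%, and 21.4% in either direction). The genes were chosen with these comparisons known, so nothing is read from their shares. Some lay close to the fold limit, which is 0.585 on the log2 scale. In M-MDSCs under CXD101, Rab27a (0.61) was below it without M-MDSC vehicle replicate 2 (0.55) or CXD101 replicate 1 (0.55), and Stx11 (0.61) without vehicle replicate 2 (0.52) or CXD101 replicate 1 (0.57). Under MS-275, Stx11 (0.54) was above it without M-MDSC vehicle replicate 1 (0.63) or MS-275 replicate 2 (0.61). Both inhibitors were compared with the same 2 vehicle libraries of each cell type.

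The inhibitors were compared with each other, at the matched dose of 5 mg/kg in M-MDSCs. There, MS-275 exceeded CXD101 for Nkg7 by 1.07 (95% interval 0.65 to 1.49) and for Srgn by 0.67 (0.47 to 0.87) on the log2 scale. Without M-MDSC CXD101 replicate 2 the Srgn difference was 0.56, below the fold limit. These were the 2 genes of 7 past both limits (3.22% of all genes were past them as higher, and 4.40% in either direction). Here too the genes were chosen with results of these libraries known, so limits and intervals are given as a description and test nothing. Sytl1 differed by 0.32 (-0.09 to 0.73), Rab27a by 0.15 (-0.01 to 0.32) and Stx11 by -0.08 (-0.31 to 0.15), intervals that include 0. Unc13d and Stxbp2 were lower under MS-275 by 0.34 and 0.20 (-0.55 to -0.14 and -0.33 to -0.07). In PMN-MDSCs, whose doses are not given, no gene of the 8 was past both limits (0.465% of all genes were as higher, 0.340% as lower and 0.805% in either direction). The differences there were 0.44 for Nkg7 (0.09 to 0.79), 0.46 for Sytl3 (0.19 to 0.74), 0.23 for Sytl1 (-0.03 to 0.50) and 0.15 for Rab27a (0.00 to 0.30).

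Between the vehicle groups, 4 of the 8 genes in the model of all 12 libraries were past both limits as higher in PMN-MDSCs (17.2% of all 11662 genes) and 1 as lower (16.8%, or 34.0% in either direction). Nkg7 was the lower one, at 1.40 against 7.60 FPKM. Its log2 difference was -1.83 (standard error 0.196). Stx11 was 3.25-fold, Srgn 2.39-fold, Sytl1 1.79-fold and Unc13d 1.64-fold higher in PMN-MDSCs. The value for Sytl1, 0.61 on the log2 scale, was 0.32 without M-MDSC vehicle replicate 1, 0.90 without M-MDSC vehicle replicate 2, 0.49 without PMN-MDSC vehicle replicate 2 and 0.52 with quantile normalization, and that for Unc13d, 0.68, was 0.58 without PMN-MDSC vehicle replicate 1. For the difference in response to MS-275, 4 of the 8 were past both limits as larger in PMN-MDSCs (8.65% of all genes) and 1, Srgn, as smaller (9.48%, or 18.1% in either direction). For CXD101 the counts were also 4 (7.31%) and 1 (6.59%), with 13.9% in either direction. The response of Nkg7 was larger in PMN-MDSCs by 1.08 with MS-275 and 1.71 with CXD101, and that of Stx11 was larger by 1.15 with MS-275. As above, these counts and values describe genes chosen with results of these libraries known, and test nothing.

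The genes whose log2 values followed Nkg7 most closely over the 12 libraries were Arhgef6 (Pearson's r = 0.988), Abcd3 (0.985), Nedd4 (0.985), 4931406C07Rik (0.980) and Selm (0.978), out of 9283 genes with a mean of at least 5 FPKM in a group. Selm, which encodes a selenoprotein, had group means of 3.70, 36.6 and 17.98 FPKM in M-MDSCs and 1.02, 21.02 and 11.2 in PMN-MDSCs, in the order vehicle, MS-275 and CXD101. Those of Nedd4, an E3 ubiquitin ligase gene, were 10.5, 30.9 and 19.8 and 5.52, 29.4 and 20.8. The closest to Sytl3 were Baiap3 (0.993), Ccdc88c (0.991), Tmem138 (0.991), Tagap (0.988) and Vil1 (0.988). Vil1, which encodes the actin-binding protein villin, had means of at most 0.138 FPKM in the M-MDSC groups, 0.0584 in vehicle PMN-MDSCs, and 8.01 and 4.94 under MS-275 and CXD101. These correlations are over libraries that share their groups, and are a description.

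Genes expressed by lymphocytes that carry the cytotoxic machinery were examined beside Nkg7. Of 21 NK and T cell markers, 16 were under 1 FPKM in all 12 libraries, and Ncr1, which encodes the NK cell receptor NKp46, was at 0 in all of them. Cd3e was at most 0.212 FPKM, Eomes at most 0.028 and Klrb1c at most 0.090. Without Thy1 and Ccl5, the other 19 summed to between 0.667 and 0.736 FPKM in vehicle M-MDSCs, between 2.65 and 3.67 under MS-275 and between 1.18 and 1.82 under CXD101. In PMN-MDSCs the sums were 2.72 to 2.84, 3.96 to 4.35 and 4.05 to 5.0. Thy1, a surface glycoprotein of T cells and of several other cell types, was 12.98 and 8.87 FPKM in vehicle M-MDSCs, 46.4 and 59.0 under MS-275, and 18.2 and 15.6 under CXD101. In PMN-MDSCs it was 3.01 and 1.21, 21.2 and 19.1, and 7.15 and 5.36. Cd3d was 0.199 and 0.717 FPKM in vehicle PMN-MDSCs and between 1.82 and 2.32 after treatment. The sums of the 19 markers were higher after treatment in both cell types, as Nkg7 was, but not all of the markers were. In PMN-MDSCs under MS-275 the mean of Cd3d rose by more than the mean sum did. Klrd1 was 1.52 and 0.348 FPKM in vehicle PMN-MDSCs and 0 and 0.187 under MS-275. In treated libraries the sums of the 19 markers lay below Nkg7 and in vehicle PMN-MDSCs above it. Ccl5, left out of them, went the other way in PMN-MDSCs. It was 10.3 and 11.9 FPKM with vehicle, 7.55 and 6.78 under MS-275, and 4.61 and 4.68 under CXD101. With all 21 markers, the PMN-MDSC sums were 15.9 to 16.1 with vehicle, 29.8 to 33.1 under MS-275 and 14.1 to 16.8 under CXD101. The part of the markers in the Nkg7 difference was not tested.

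**Figure D3:**
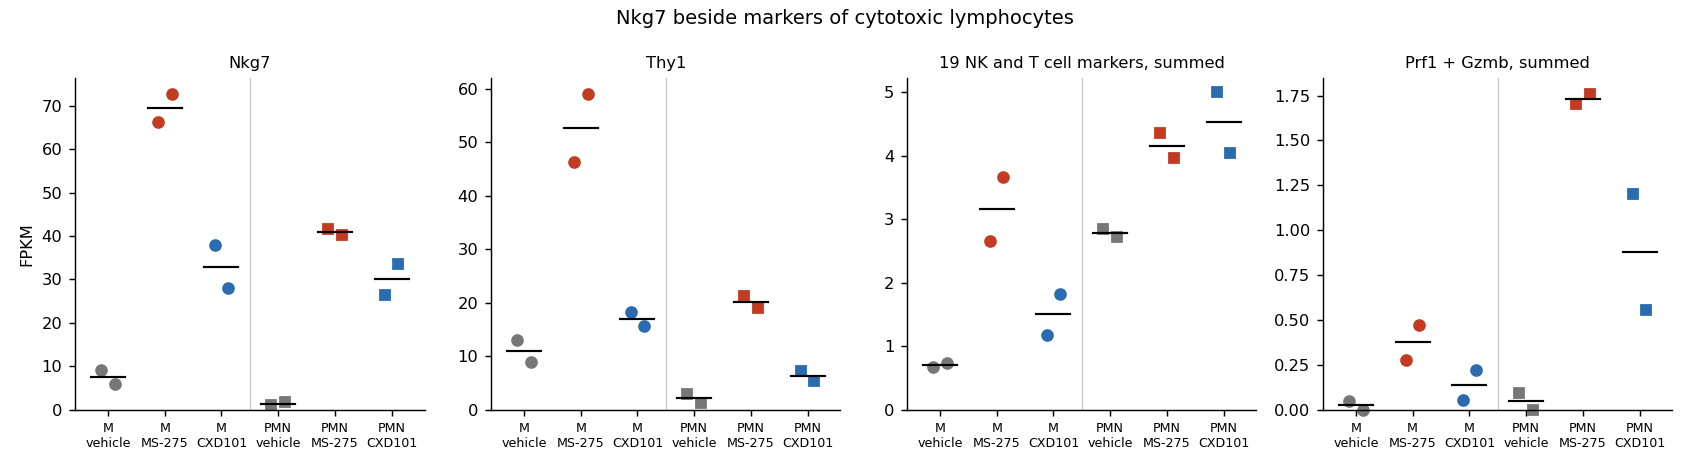
Nkg7, Thy1, the sum of the other 19 NK and T cell markers (Ccl5 left out) and the sum of Prf1 and Gzmb, in FPKM on linear axes from 0 with a scale of their own, by library and group. Points are libraries and black lines are means of 2. Nkg7 reaches 72.7 FPKM and Thy1 59.0, where the 19 markers together stay at or below 5.0.

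Other marker lists moved too. The 10 eosinophil markers summed to between 162 and 198 FPKM in vehicle M-MDSCs and between 384 and 425 after treatment, and the 10 platelet markers to between 9.88 and 11.4 and between 25.1 and 50.8. In PMN-MDSCs the eosinophil sums were 343 to 379 with vehicle and 390 to 495 after treatment, and the platelet sums 23.1 to 40.5 and 45.7 to 66.6. The eosinophil markers there went both ways. Under MS-275 and CXD101, Epx was lower by 1.02 and 0.94 on the log2 scale and Prg2 by 0.55 and 0.57. Ear2 was higher by 0.32 and 0.63, and Ear6 by 0.18 and 0.49. The neutrophil sum of PMN-MDSCs went from between 73668 and 99871 FPKM to between 262332 and 303121, and that of M-MDSCs from between 11873 and 12493 to between 22523 and 26526. The sums are dominated by S100a8 and S100a9, at 10828 and 10007 FPKM in 1 of the M-MDSC libraries under MS-275, and the markers did not all move one way. In M-MDSCs under MS-275, Mmp8 was higher by 2.80 and Cxcr2 by 2.42 on the log2 scale, while Ltf was lower by 1.47, Mmp9 by 1.11 and Camp by 0.98. In PMN-MDSCs under MS-275, Ltf was higher by 2.49 and Camp by 2.71, and Mmp9 lower by 0.65. The monocyte sum went from between 1625 and 1698 FPKM to between 2334 and 2718 in M-MDSCs, and from between 668 and 747 to between 1548 and 1799 in PMN-MDSCs. Of its genes, Ly6c2 was higher by 0.86 and 1.71 under MS-275 in M-MDSCs and PMN-MDSCs, Fcgr1 was lower by 1.75 in M-MDSCs, and Csf1r was lower by 1.28 in PMN-MDSCs. The rise in PMN-MDSCs was that of Ly6c2, with means of 483 FPKM with vehicle, 1582 under MS-275 and 1523 under CXD101. Csf1r and Ccr2 went there from 153 and 38.2 FPKM to 62.0 and 29.7 under MS-275. Fcgr1, Ms4a6c and Cx3cr1 were also lower, and F13a1 differed by 0.01. The 12 basophil and mast cell markers were summed too. In M-MDSCs the sums were 35.3 to 40.4 FPKM with vehicle, 41.2 to 48.0 under MS-275 and 38.8 to 50.7 under CXD101. Under MS-275 there, Gata2 was higher by 1.46, Hdc by 0.94 and Prss34 by 0.85. Il6ra, the largest part of the M-MDSC sums, was lower by 0.39. In PMN-MDSCs the sums were 116 to 148 with vehicle, 66.1 to 71.4 under MS-275 and 118 to 120 under CXD101. The 6 hepatocyte markers stayed at or below 3.39 FPKM. The part of these lists in the results on the 10 genes was not tested.

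Of 128 further genes of granule biogenesis, transport and exocytosis, none of them among the 10, 87 were tested in M-MDSCs and 90 in PMN-MDSCs with limma on log2(FPKM + 1), adjusted over all genes. This list was chosen with earlier results of these data known, so its shares, calls and p-values are given as a description. In M-MDSCs under MS-275, 10 of 87 were higher (11.5%, against 10.1% of all genes) and 3 were lower (3.45%, against 7.32%). Under CXD101, 7 were higher (8.05%, against 5.14%) and 1 was lower (1.15%, against 3.0%). In PMN-MDSCs, 14 of 90 were higher under MS-275 (15.6%, against 14.6%) and 8 lower (8.89%, against 14.2%). Under CXD101, 13 were higher (14.4%, against 11.9%) and 4 lower (4.44%, against 9.54%). The shares of higher calls lay above those of all genes and the shares of lower calls below them in each of the 4 comparisons. These differences rest on few genes and were not tested, so no pattern of the list is read from them. The list as a whole had a median log2 difference between -0.08 and 0.00 in the 4 comparisons, against -0.06 to -0.02 for all genes.

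The gene with the largest change in M-MDSCs, Rab37, belonged to those around Rab27 and Rab3. Of the 11 tested in M-MDSCs, 3 were higher under either inhibitor and none was lower. These are 27.3%, against 10.1% of all genes under MS-275 and 5.14% under CXD101. Of the 13 tested in PMN-MDSCs, 5 were higher under MS-275 (38.5%, against 14.6%) and 6 under CXD101 (46.2%, against 11.9%), with none lower. As the list was chosen with earlier results known, nothing is read from these shares. Rab37, a secretory granule GTPase, was 1.58 and 1.70 FPKM in vehicle M-MDSCs, 9.87 and 10.9 under MS-275, and 4.83 and 5.22 under CXD101. In PMN-MDSCs it was 10.9 in both vehicle libraries, 48.6 and 49.3 under MS-275, and 41.0 and 39.8 under CXD101. Its log2 differences from vehicle were 2.11 and 1.19 in M-MDSCs (limma adjusted p = 5.10e-06 and 2.48e-04) and 2.07 and 1.80 in PMN-MDSCs (limma adjusted p = 1.85e-06 and 4.57e-06).

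Tbc1d10c, which encodes a TBC-domain protein, had log2 differences of 1.34 and 1.09 in M-MDSCs and 1.37 and 1.3 in PMN-MDSCs, and Rab44, a large Rab GTPase gene, had 0.97 and 0.83, and 1.02 and 0.92. All of these passed both limits. Rph3a, which encodes the Rab effector rabphilin, was at most 0.765 FPKM in M-MDSCs, and rose by 1.10 under MS-275 in PMN-MDSCs. Under CXD101 it rose by 0.70 there, a call lost without PMN-MDSC vehicle replicate 1 (0.64), without PMN-MDSC CXD101 replicate 1 (0.61) and with quantile normalization (0.37).

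Among the 25 priming, SNARE and calcium-sensor genes tested in each cell type, 6 were higher and 2 lower in M-MDSCs under MS-275, and 4 and 1 under CXD101. In PMN-MDSCs, 5 were higher and 2 lower under MS-275, and 5 and 1 under CXD101. Baiap3, a relative of Unc13d, was 0.177 and 0.468 FPKM in vehicle PMN-MDSCs, 5.03 and 6.14 under MS-275, and 4.52 and 4.01 under CXD101, and no more than 0.686 in any M-MDSC library. It rose by 2.32 and 2.0 in PMN-MDSCs (limma adjusted p = 3.21e-05 and 1.02e-04). The vesicle SNARE genes Vamp5 and Vamp1 and the SNAP-25 relative Snap47 rose under both inhibitors in both cell types, by 1.62, 1.11 and 1.61 under MS-275 in M-MDSCs and by 1.3, 1.15 and 1.25 in PMN-MDSCs. Under CXD101 their differences were 1.01, 0.77 and 0.90 in M-MDSCs and 1.39, 1.22 and 1.17 in PMN-MDSCs.

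Syntaxin and SNARE recycling genes were among those that fell. Stx7, a syntaxin of late endosomes, was lower by 0.70 on the log2 scale in PMN-MDSCs under MS-275, at 90.5 and 79.2 FPKM against 132 and 145 with vehicle. In M-MDSCs under MS-275 its FPKM was 52.1 and 53.2 against 85.8 and 83.4, and its log2 difference of -0.67 passed both limits except with quantile normalization, at -0.54. Stx4a, a plasma membrane syntaxin, fell by 0.71 in M-MDSCs under MS-275, and Nsf, the ATPase that takes SNARE complexes apart, fell by 0.75 in PMN-MDSCs under MS-275.

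**Figure D4:**
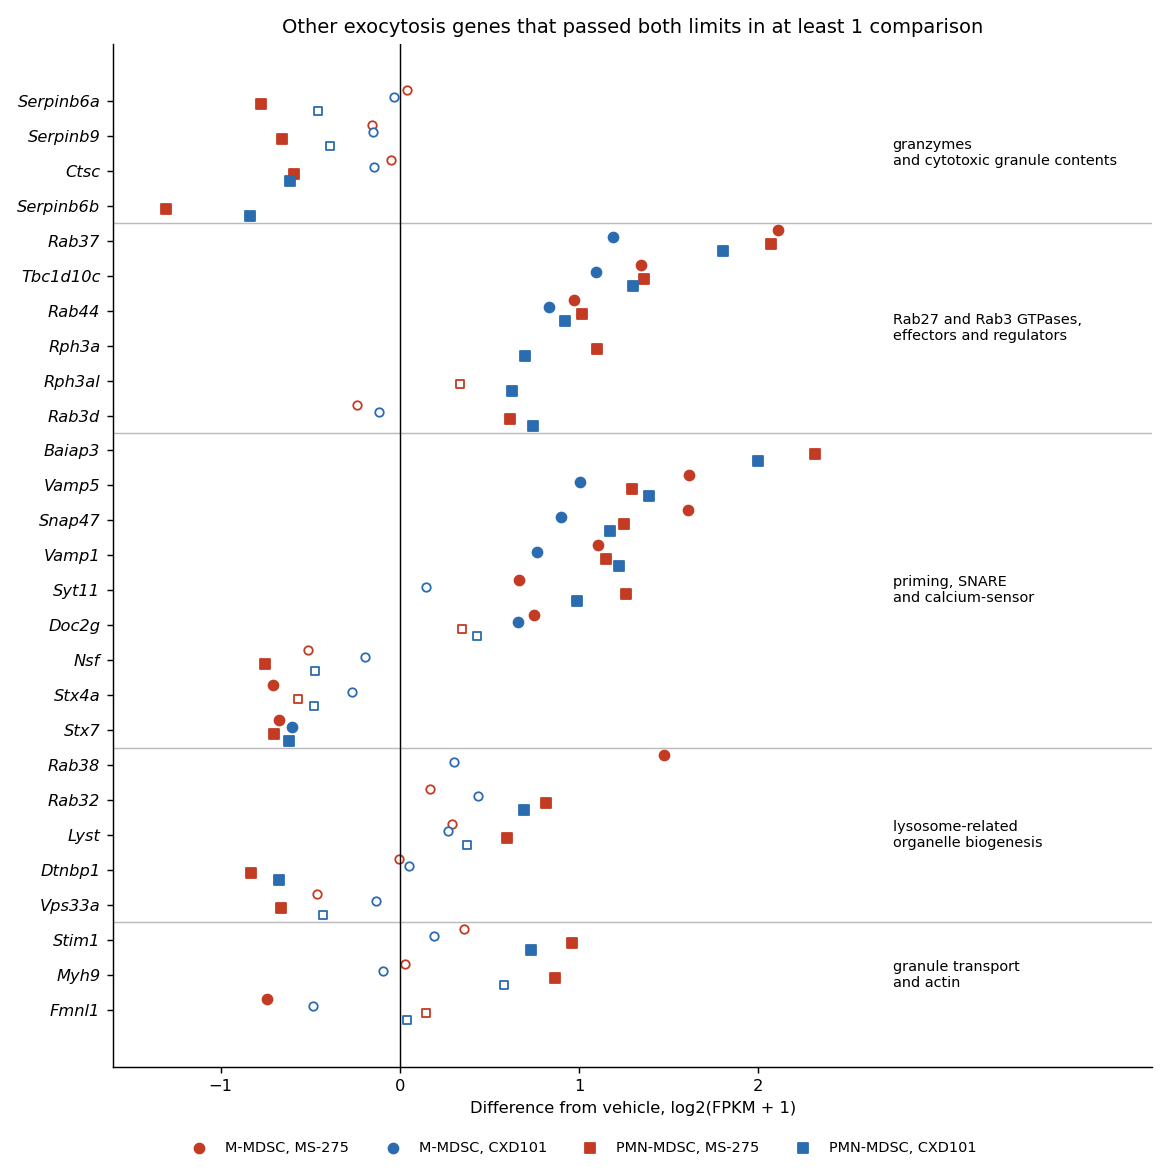
Difference from vehicle (horizontal axis, log2(FPKM + 1)) of the further exocytosis genes that passed both limits in at least 1 of the 4 comparisons, grouped by role, with 1 gene left out. Circles are M-MDSCs, squares PMN-MDSCs, red MS-275 and blue CXD101, and filled symbols passed both limits. Rab37 lies between 1.19 and 2.11 in all 4 comparisons, and Baiap3 at 2.0 and 2.32 in PMN-MDSCs has no M-MDSC point because it was under the FPKM minimum there.

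The further genes listed for granzymes and granule contents, which include protease inhibitors, had calls against vehicle only as lower and only in PMN-MDSCs. Srgn and Prf1, which were higher after treatment, are not on this list. None of the 5 listed genes tested in M-MDSCs passed both limits with limma, where 17.5% (MS-275) and 8.13% (CXD101) of all genes did. Of these 5, 0 under MS-275 and 1 under CXD101 had an unadjusted p under 0.05. Of the 7 tested in PMN-MDSCs, 4 were lower under MS-275 (57.1%, against 14.2% of all genes) and 2 under CXD101 (28.6%, against 9.54%). Serpinb6a, which encodes a serine protease inhibitor, was 20.4 and 20.98 FPKM in vehicle PMN-MDSCs and 11.1 and 12.4 under MS-275, a fall of 0.77 (limma adjusted p = 3.62e-04). Serpinb6b, a close relative with which reads may be shared, fell by 1.3 under MS-275. Ctsc, the protease that activates granzymes and neutrophil serine proteases, was 375 and 365 FPKM in vehicle PMN-MDSCs and 241 and 250 under MS-275. Its log2 difference of -0.59 lost its call without PMN-MDSC vehicle replicate 1 (-0.57), without PMN-MDSC MS-275 replicate 1 (-0.56), with median-of-ratios scaling (-0.56) and with quantile normalization (-0.55).

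Of the 30 genes for the biogenesis of lysosome-related organelles, 1 was higher in M-MDSCs under MS-275 (3.33%, against 10.1% of all genes). This was Rab38, a GTPase of melanosome and platelet granule formation, at 3.07 and 5.23 FPKM against 0.831 and 0.794 with vehicle (log2 difference 1.47, limma adjusted p = 6.71e-04). None was called with limma under CXD101 in M-MDSCs, where 8.13% of all genes were and 5 of the 30 had an unadjusted p under 0.05. In PMN-MDSCs, 2 of 29 were higher and 2 lower under MS-275 (6.90% each, against 14.6% and 14.2% of all genes). Under CXD101, 1 was higher and 1 lower there (3.45% each, against 11.9% and 9.54%). Rab32, the closest relative of Rab38, rose there by 0.82 under MS-275 and 0.69 under CXD101, while Rab38 itself was between 0.280 and 0.841 FPKM in all PMN-MDSC libraries. Of the 16 genes of granule transport and actin, Fmnl1, a formin gene, fell by 0.74 in M-MDSCs under MS-275, and Myh9 and Stim1, a nonmuscle myosin heavy chain and a calcium sensor of the endoplasmic reticulum, rose by 0.87 and 0.96 in PMN-MDSCs under MS-275. Stim1 also rose under CXD101 there, by 0.73.

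The inhibitors differed from each other in few of these genes. In M-MDSCs, 4 of 87 were higher under MS-275 than under CXD101 (3.22% of all genes) and 0 lower (1.17%). Rab37 differed by 0.92 and Snap47 by 0.71 (limma adjusted p = 0.00213 and 0.00587). Rab38 differed by 1.17, a call lost without M-MDSC CXD101 replicate 1, at 1.06. In PMN-MDSCs, 0 of 90 passed both limits with limma (0.805% of all genes did), 9 had an unadjusted p under 0.05, and no alternative setting called any. Between the vehicle groups, 24 of 92 were higher in PMN-MDSCs (17.2% of all genes) and 2 lower (16.8%), led by Rab37 at 2.17, Vamp5 at 2.07, Tbc1d10c at 1.86 and Rab44 at 1.79 on the log2 scale.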

How the data were processed

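Stranded mRNA libraries were made from the sorted cells, and for each library the authors deposited 1 table of FPKM values, which are scaled to transcript length and library size. Per the labels, the submitters' processing notes name the mm10 build, TopHat2 2.1.1, Bowtie2 2.2.8, SAMtools 0.1.18 and Cuffdiff 2.2.1. The annotation and the strand setting are not given in the sources used here. Counts were not used here, so no count model was fitted.

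Log2(FPKM + 1) values of genes with at least 1 FPKM in at least 2 libraries were fitted with limma 3.58.1 in R 4.3.3 (empirical Bayes with trend, two-sided), on 6 libraries for comparisons within a cell type and on all 12 for those between cell types. P-values were adjusted over all genes by the Benjamini-Hochberg method, and calls needed an adjusted p under 0.05 and a fold above 1.5. The procedure was tested on simulated data. Estimated depth was 6840000 to 10400000 reads per library, which limits precision below about 1 FPKM. Python 3.11.15, pandas 2.3.3 and matplotlib 3.10.9 were used for the rest. Gene positions came from GENCODE on GRCm38.

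The 10 genes and all lists were chosen with earlier results of these data known. The text names all 10, up to 10 of the most raised and 10 of the most lowered called exocytosis genes per comparison, markers at or above 1 FPKM, and the 5 genes most like Nkg7 and Sytl3. Cd3e, Eomes, Klrb1c, Ncr1 and the genes given as undetected were added after their values were seen. A gene of the exocytosis list was counted but is not reported here. Alternatives were a pseudocount of 0.1, no filter, median-of-ratios scaling, quantile normalization, a replicate block, and leaving out each library.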

Additional observations from a re-analysis of the deposited data

Results flagged for a closer look

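For 18 results of the further exocytosis genes, the response to an inhibitor differed between the cell types by the interaction term of the limma model over all 12 libraries, with both limits passed. All values are PMN-MDSC minus M-MDSC responses on the log2(FPKM + 1) scale, for genes of a list chosen with earlier results known.

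With MS-275, the response was larger in PMN-MDSCs for Baiap3 (2.07), Fmnl1 (0.89), Rab3d (0.86), Myh9 (0.84), Coro1a (0.65), Rab32 (0.64) and Stim1 (0.60). It was smaller for Rab38 (-1.48), Serpinb6b (-1.21), Dtnbp1 (-0.83) and Serpinb6a (-0.81). Rab38 was between 0.280 and 0.841 FPKM in PMN-MDSC libraries, so its response there was near the detection limit. Fmnl1 was 111 and 117 FPKM in vehicle M-MDSCs and 70.1 and 65.4 under MS-275, and between 208 and 239 in all PMN-MDSC libraries.

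With CXD101, the response was larger in PMN-MDSCs for Baiap3 (1.89), Rab3d (0.86), Syt11 (0.84), Stx3 (0.70), Myh9 (0.68) and Rab37 (0.61), and smaller for Dtnbp1 (-0.73).

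Several of these calls rested on 1 library. For MS-275, Stim1 was not called without M-MDSC vehicle replicate 1 (0.57), M-MDSC MS-275 replicate 2 (0.55), PMN-MDSC vehicle replicate 2 (0.51) or PMN-MDSC MS-275 replicate 1 (0.54). Serpinb6b was not called without M-MDSC MS-275 replicate 2 (-1.16), PMN-MDSC vehicle replicate 1 (-0.93) or PMN-MDSC MS-275 replicate 2 (-1.08), and Coro1a not without PMN-MDSC MS-275 replicate 2 (0.54). For CXD101, Rab37 was not called without M-MDSC vehicle replicate 2 (0.58) or M-MDSC CXD101 replicate 1 (0.57), and Dtnbp1 not without PMN-MDSC CXD101 replicate 2 (-0.58). Syt11 was not called without M-MDSC vehicle replicate 1 (0.71), either M-MDSC CXD101 library (0.86 and 0.83), PMN-MDSC vehicle replicate 1 (0.63) or PMN-MDSC CXD101 replicate 2 (0.76).

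For Unc13d and Stxbp2, both MS-275 libraries lay below vehicle in M-MDSCs and above vehicle in PMN-MDSCs, and the responses differed by 0.42 and 0.52. The genes were chosen with these values known and the difference was not tested. For Stxbp2 the M-MDSC difference of -0.11 became 0.03 with quantile normalization.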

How the results depend on the processing

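No result changed direction in a call. The counts of further exocytosis genes called, both directions together, were 13 and 8 for MS-275 and CXD101 against vehicle in M-MDSCs, 4 for MS-275 against CXD101 there, 22, 17 and 0 for the same comparisons in PMN-MDSCs, 26 between the vehicle groups, and 12 and 7 for the differences in response. Leaving out 1 library gave 13 in each case, 6 to 8, 2 to 4, 20 to 22, 14 to 17, 0 in each case, 23 to 26, 10 to 12 and 5 to 7, in the same order. The count for MS-275 against CXD101 in M-MDSCs was 2 without M-MDSC CXD101 replicate 1. With 2 libraries a group, leaving out 1 assumes that the lone library varies like the other groups. With the replicate block the counts were 13, 8, 4, 22, 17, 0, 26, 11 and 7. The replicate numbers were not treated as paired, since the correlations of same-numbered deviations were between -0.13 and 0.18 over 15 pairs of groups, with 1 above 0.1. Of 109 calls of single genes, 17 were lost with quantile normalization, 3 with median-of-ratios scaling, 3 with a pseudocount of 0.1, 2 without the filter and 2 with the replicate block. Depth limits Gzmb, Prf1 and, in M-MDSCs and vehicle PMN-MDSCs, Sytl3. It also limits Nkg7 in vehicle PMN-MDSCs.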

Other observations

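The genes next to Nkg7 and Sytl3 were read in a window of 250000 bases on either side, chosen after the values had been seen. Near Nkg7, 19 genes were in the files. In M-MDSCs, 4 of the 11 tested were higher under either inhibitor and 0 were lower, where 10.1% of all genes were higher under MS-275 and 5.14% under CXD101. In PMN-MDSCs, 7 of the 12 tested were higher under MS-275 and 5 under CXD101, and 0 were lower, where 14.6% and 11.9% of all genes were higher. Neighbours were not tested as a group. Siglecg, which encodes an inhibitory sialic acid receptor 18715 bases away, was higher by 1.0 and 1.14 on the log2 scale in M-MDSCs and by 0.64 and 0.88 in PMN-MDSCs. Siglece, a receptor gene of the same family, was higher by 1.15 and 0.77, and by 0.85 and 0.63. Siglecf, a further member that also marks eosinophils, was higher in M-MDSCs by 2.19 and 1.37. Its PMN-MDSC differences of 0.32 and 0.05 were below the fold limit, and the difference between the cell types was not tested. Etfb, a gene of mitochondrial electron transfer 5834 bases away, differed by 0.19 to 0.33 in the 4 comparisons and was not called.

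Near Sytl3, 10 genes were in the files. None of the 8 tested in M-MDSCs was called, and in PMN-MDSCs 2 of the 9 tested were higher under MS-275 (14.6% of all genes were) and 5 under CXD101 (11.9%). Dynlt1c, a dynein light chain gene, was higher there by 1.45 and 1.43, but it has near-identical copies that may share its reads. Ezr, which overlaps the end of Sytl3, differed by 0.38 under either inhibitor in PMN-MDSCs and was below the fold limit.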
